A study of Mus musculus with 22 samples.

Results

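Polycomb repressive complex 2 (PRC2) was followed at the transcript level in mouse mesenchymal cells that expressed wild-type or mutant DNMT3A1. The 9 genes described are Ezh1, Ezh2, Eed, Suz12, Jarid2, Aebp2, Mtf2, Phf1 and Phf19, taken by symbol from the 30170 genes of the count table. All 9 were in the table and all 9 passed the filter on low counts, which kept 14520 genes. The cells were C3H 10T1/2, a mouse mesenchymal stem cell line that can be turned into adipocytes, and the question of the series was how lines carrying different DNMT3A1 proteins differ in expression during that change. The genotypes were DNMT3A WT, the W330R mutant, and the W330R-R181E mutant, which carries a second substitution. Every differentiating culture first received isobutylmethylxanthine, dexamethasone, insulin and troglitazone, and later insulin alone, and was sampled at days 2, 4 and 6. Undifferentiated cells (undiff), which had no such treatment, were sampled for WT and W330R but not for W330R-R181E. The sources used here do not say how the DNMT3A1 constructs were delivered, whether a line is a single clone, or whether the 2 libraries of a condition came from separate cultures. The p-values therefore measure the spread between these libraries, which may be technical.

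The 22 libraries formed 11 conditions of 2 libraries each, with 8859501 to 47453908 reads counted per library (median 19355792). Levels are CPM, read counts scaled to a common library size, with the TMM correction for composition. Changes are log2 fold changes with their SE from 1 edgeR quasi-likelihood fit over the 22 libraries. A gene was called when its p, adjusted by Benjamini-Hochberg over the 14520 genes, was under 0.05. The undifferentiated libraries stood apart. Their columns are named by another pattern than those of days 2 to 6. There were 14 genes at 1 CPM or more in all 4 undifferentiated libraries with no read in the other 18. Most of them have pseudogene-type or predicted-gene symbols. Another 20 genes had the reverse pattern, among them the adipocyte markers Cd36, Cidec and Plin1 and several predicted genes. Replicates also differed less in undifferentiated cells: within those 2 pairs the chi-square per degree of freedom was 3.10 and 3.40. Within the 9 pairs of days 2 to 6 it was 29.3 to 103. The fit gives each gene a spread shared by all 11 conditions. The wider spread of days 2 to 6 therefore also enters the SE and p of the undifferentiated libraries. Whether those libraries were made or counted differently was not tested, and for the step from undifferentiated to day 2 a difference of that kind and the differentiation itself cannot be told apart. The step from day 2 to day 6 lies within a single naming pattern. The change of medium to insulin alone may fall within that step, and its part was not tested. The summed level of 8 adipocyte markers was 51.5 to 59.6 CPM in undifferentiated libraries and 1441 to 9229 CPM later, and the summed level of 6 mesenchymal markers was 16504 to 20499 CPM and 2605 to 13720 CPM. Defining epithelial, endothelial, immune and pluripotent cell markers together reached at most 24.1 CPM per list in any library, with Epcam and Zfp42 at 0 throughout.

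PRC2 places methyl groups on lysine 27 of histone H3, a mark of silenced developmental genes. A catalytic subunit, either Ezh1 or Ezh2, works only together with the scaffold proteins Eed and Suz12, and Eed also reads the mark that the complex writes. Accessory subunits bind in exclusive groups: the Polycomb-like proteins Phf1, Mtf2 and Phf19, which define PRC2.1 and read methylated H3 lysine 36 and CpG-rich DNA, and Jarid2 and Aebp2, which define PRC2.2 and bind H2A ubiquitinated by PRC1. Ezh2 is known as the subunit of dividing cells and as an E2F target, and Ezh1 as the one that remains in cells that have left the cycle. DNMT3A reads methylated H3 lysine 36 through its PWWP domain, in which W330 lies, and its N-terminal part binds the same ubiquitinated H2A that Jarid2 and Aebp2 bind.

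Promoter sequences are shown for the 3 members that held a match to the E2F letters given next, Ezh2, Suz12 and Phf19, and for Ezh1, the other catalytic subunit, which held none. They are RefSeq windows of the GRCm38.p6 assembly, from 250 bases before to 50 bases after the start site, so each is the 300 bases around a start of transcription. The letters TTTCCCGC, TTTCGCGC, TTTGCCGC and TTTGGCGC, forms of the E2F site, were searched on both strands, and capitals mark a match. Windows were found for 9 of 9 members (13 windows), and 3 members held a match, against 704 of 27025 genes (2.61%) and 744 of 32851 windows (2.26%) in all. The Ezh2 window, at chr6:47594981-47595280 on the minus strand, held TTTGGCGC 3 bases past the start. The Suz12 window, at chr11:79992856-79993155 on the plus strand, held TTTCCCGC at −219 bases from it. The Phf19 window, at chr2:34913927-34914226 on the minus strand, held GCGGGAAA, the same site read on the opposite strand, at −208 bases from the start. The Ezh1 window, at chr11:101226414-101226713 on the minus strand, held none of these letters. No match overlapped another. A match is a description of the letters and not a bound site.
Ezh2: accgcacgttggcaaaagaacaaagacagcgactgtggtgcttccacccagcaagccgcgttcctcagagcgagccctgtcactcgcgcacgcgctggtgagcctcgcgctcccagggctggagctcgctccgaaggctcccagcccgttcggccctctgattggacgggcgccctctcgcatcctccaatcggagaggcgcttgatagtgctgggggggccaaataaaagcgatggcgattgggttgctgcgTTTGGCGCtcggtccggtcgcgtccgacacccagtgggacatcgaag
Suz12: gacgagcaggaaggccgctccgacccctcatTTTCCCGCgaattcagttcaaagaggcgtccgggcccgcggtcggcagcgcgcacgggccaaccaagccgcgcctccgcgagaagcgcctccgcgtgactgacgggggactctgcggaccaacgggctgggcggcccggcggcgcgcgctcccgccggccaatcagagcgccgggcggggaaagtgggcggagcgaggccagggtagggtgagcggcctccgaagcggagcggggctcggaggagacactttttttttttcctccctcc
Phf19: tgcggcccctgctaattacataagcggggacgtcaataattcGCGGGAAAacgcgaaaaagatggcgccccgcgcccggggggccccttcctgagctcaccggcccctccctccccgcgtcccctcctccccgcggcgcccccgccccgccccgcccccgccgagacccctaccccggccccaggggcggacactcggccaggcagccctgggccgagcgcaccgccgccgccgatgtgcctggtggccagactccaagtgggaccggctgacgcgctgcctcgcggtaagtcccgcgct
Ezh1: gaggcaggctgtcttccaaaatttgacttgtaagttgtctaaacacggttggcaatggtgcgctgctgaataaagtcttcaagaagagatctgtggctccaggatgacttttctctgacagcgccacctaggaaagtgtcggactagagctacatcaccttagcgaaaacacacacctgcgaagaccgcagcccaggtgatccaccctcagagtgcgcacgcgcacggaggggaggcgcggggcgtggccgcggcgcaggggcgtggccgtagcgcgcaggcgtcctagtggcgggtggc

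The catalytic subunits moved apart over the course. Ezh1 was 37.6 ± 1.24 CPM (SD, n = 2) in undifferentiated WT cells and 73.4 ± 0.392 CPM (n = 2) in undifferentiated W330R cells, and in days 2 to 6 it ranged from 116.9 to 188 CPM over 18 libraries (median 154). Ezh2 was 51.7 to 55.1 CPM in the 4 undifferentiated libraries and 21.9 to 32.0 CPM in the 6 libraries of day 6. Between undifferentiated cells and day 2, Ezh1 rose by 1.53 ± 0.13 on the log2 scale (2.88-fold, adjusted p = 1.62e-07). Ezh2 changed by −0.20 ± 0.15 in the same step and was not called (adjusted p = 0.277). From day 2 to day 6 the order was the reverse: Ezh2 fell by 0.68 ± 0.13 (1.60-fold, adjusted p = 0.000499), and Ezh1 differed by −0.20 ± 0.10 and was not called (adjusted p = 0.108). Leaving out W330R day 2 replicate 1 gave −0.30 for Ezh1, which was called (adjusted p = 0.0102). In bulk RNA, fewer cells of a type and less RNA per cell cannot be told apart, here and for every value that follows.

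Library by library, Ezh1 stood at 36.7 and 38.5 CPM in undifferentiated WT and at 73.7 and 73.1 CPM in undifferentiated W330R. WT libraries then held 143 and 159 CPM at day 2, 166 and 157 CPM at day 4, and 116.9 and 150 CPM at day 6. W330R libraries held 118.99 and 184 CPM, 159 and 165 CPM, and 120 and 118 CPM at those days. All 18 libraries of days 2 to 6 lay above all 4 undifferentiated ones. W330R-R181E libraries held 134 and 162 CPM at day 2, 188 and 180.7 CPM at day 4, and 149 and 132 CPM at day 6. With the 11 conditions in order of their mean, undifferentiated WT was lowest and W330R-R181E at day 4 highest (184 CPM). The 2 undifferentiated conditions were separate from each other and from the rest, and the 8 conditions from W330R at day 6 up to W330R at day 4 each overlapped the next. Of its 31-base words, 0.507% occur in other annotated genes.

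Ezh2 stood at 52.7 and 55.1 CPM in undifferentiated WT and at 51.9 and 51.7 CPM in undifferentiated W330R. In WT it was 46.1 and 57.8 CPM at day 2, 34.7 and 46.7 CPM at day 4, and 29.0 and 21.9 CPM at day 6. In W330R it was 46.1 and 35.6 CPM, 39.9 and 32.0 CPM, and 32.0 and 26.8 CPM. The 2 day 6 libraries of WT lay below every other WT library, while in W330R the higher day 6 library overlapped day 4. In W330R-R181E it was 31.7 and 48.8 CPM at day 2, 32.2 and 30.2 CPM at day 4, and 27.8 and 28.4 CPM at day 6. Of the 10 neighbouring pairs in the order of condition means, 9 overlapped, and the gap lay between W330R at day 2 (40.9 CPM) and undifferentiated W330R (51.8 CPM). By genotype, the fall from day 2 to day 6 was called in WT (−1.03 ± 0.22, adjusted p = 0.00367) and missed the threshold in W330R (−0.47 ± 0.22, adjusted p = 0.129) and W330R-R181E (−0.52 ± 0.22, adjusted p = 0.0985). The WT call was lost in a fit of the WT libraries of those 2 days alone (−1.03, adjusted p = 0.0558). The test of the difference between W330R and WT in this step gave 0.56 ± 0.31 (adjusted p = 0.840), so a difference between genotypes was not shown.

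The ratio of Ezh1 to Ezh2 counts within a library does not depend on the library scaling. It was 0.697 ± 0.00163 (SD, n = 2) in undifferentiated WT, 1.42 ± 0.00309 (n = 2) in undifferentiated W330R, and 2.92 to 5.91 in the 9 later condition means. Compared per length, as CPM per kilobase of merged GENCODE M21 exons (7440 bases for Ezh1 and 6678 for Ezh2), Ezh2 was the higher of the pair in undifferentiated WT (8.07 against 5.05). In undifferentiated W330R, Ezh1 was higher (9.86 against 7.76). In days 2 to 6 the condition means were 16.002 to 24.8 for Ezh1 and 3.81 to 7.79 for Ezh2, and no library overlapped between the genes. The lengths come from an older build than the GRCm39 of the processing notes, and the isoforms that the counting used are not given.

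**Figure D1:**
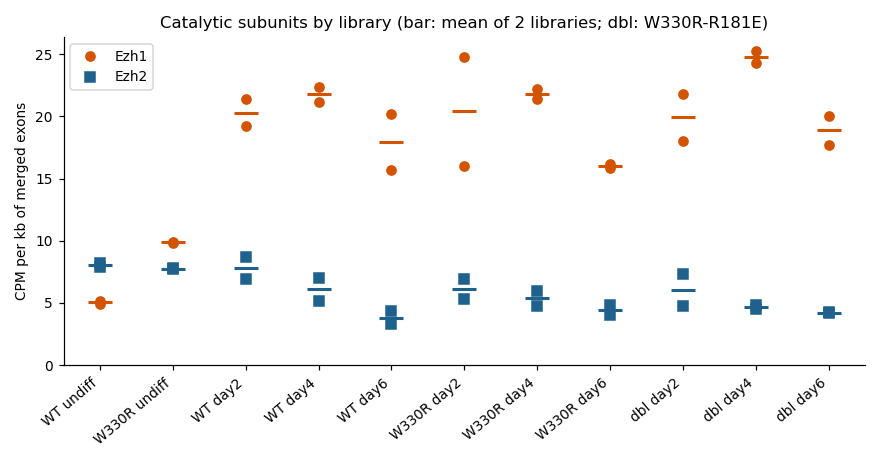
Ezh1 (circles) and Ezh2 (squares) in CPM per kilobase of merged exons for each of the 22 libraries, by condition, with bars at the mean of 2 libraries and dbl for W330R-R181E. Ezh1 lies below Ezh2 in undifferentiated WT alone (5.05 against 8.07) and far above it from day 2 on (16.002 to 24.8 against 3.81 to 7.79).

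In the mean of the genotypes, the scaffold subunits fell with Ezh2 between day 2 and day 6. Suz12, which holds the complex together and contacts nucleosomes, fell by 0.45 ± 0.11 (adjusted p = 0.00256) and Eed fell by 0.38 ± 0.09 (adjusted p = 0.00385). Suz12 was already lower at day 2 than in undifferentiated cells, by 0.40 ± 0.13 (adjusted p = 0.0135), whereas Eed differed by −0.06 ± 0.11 (adjusted p = 0.692). Suz12 stood at 97.1 and 97.9 CPM in undifferentiated WT and at 82.2 and 82.1 CPM in undifferentiated W330R. The highest later library was 77.5 CPM (W330R-R181E at day 2), so the 4 undifferentiated libraries did not overlap the other 18. At day 6 the 6 libraries lay between 44.8 and 60.9 CPM (median 48.7), with the 2 of WT at 44.8 and 50.7 CPM, those of W330R at 47.5 and 49.0 CPM, and those of W330R-R181E at 48.3 and 60.9 CPM. Eed ran from 26.3 to 30.4 CPM in undifferentiated libraries to 17.7 to 27.1 CPM at day 6. The highest of the day 6 values for Eed, 27.1 CPM, was a W330R-R181E library, and the other 5 lay at or below 21.0 CPM. Without W330R at day 2 replicate 2, the early difference of Suz12 was −0.30 and was no longer called (adjusted p = 0.0709).

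**Figure D2:**
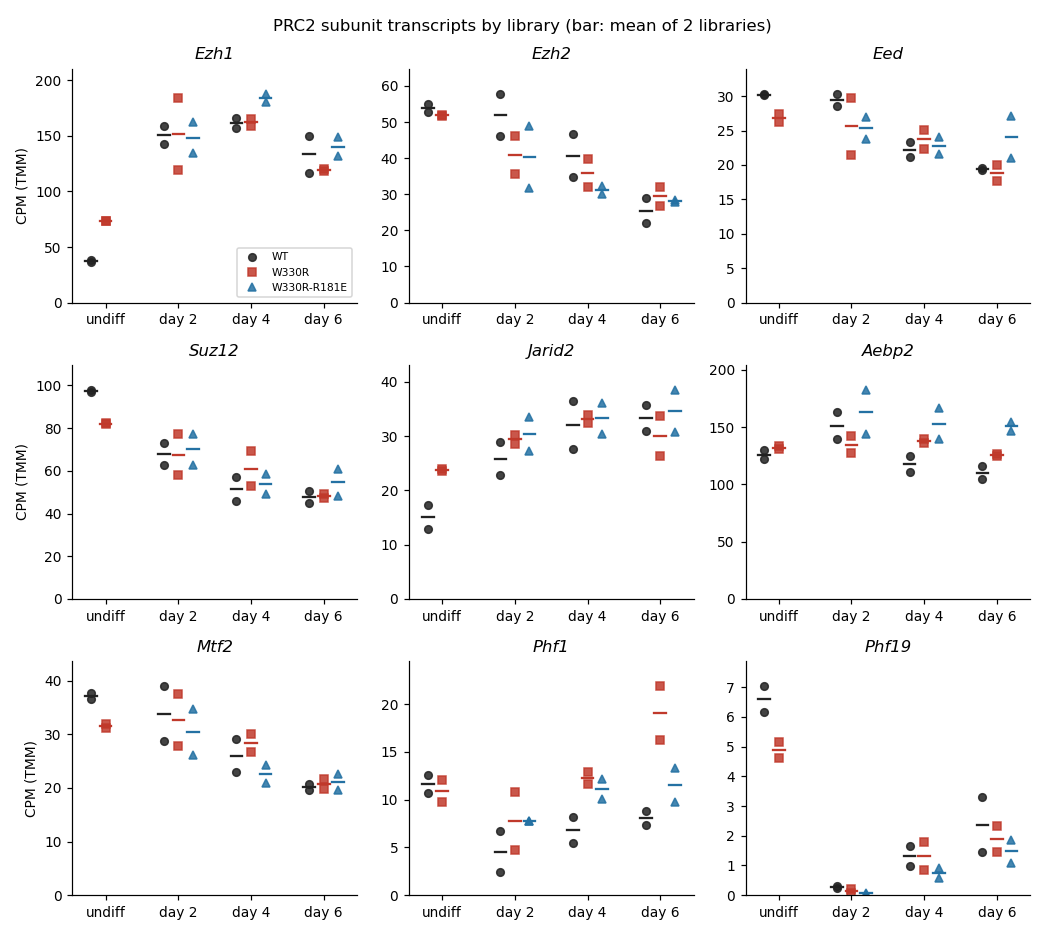
Each panel plots the CPM of a PRC2 gene (vertical axis, TMM scaled, from 0) in every library by stage, with WT as circles, W330R as squares, W330R-R181E as triangles and bars at the mean of 2 libraries. Ezh1 and Jarid2 are lowest in undifferentiated cells, Ezh2, Eed, Suz12 and Mtf2 decline towards day 6, and Phf19 drops to 0.0495 to 0.295 CPM at day 2.

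Among the Polycomb-like subunits, Phf1 and Phf19 were both lower at day 2 and higher again at day 6, while Mtf2 was called in the second step alone, where it fell. Mtf2, the member that brings PRC2.1 to CpG islands in stem cells, followed the catalytic subunit Ezh2: it ran from 31.1 to 37.7 CPM in undifferentiated libraries, through 26.2 to 39.0 CPM at day 2, to 19.6 to 22.6 CPM at day 6. Its fall from day 2 to day 6 was 0.64 ± 0.11 (adjusted p = 0.000244), and all 6 libraries of day 6 lay below all 6 of day 2. The earlier step gave −0.04 ± 0.13 (adjusted p = 0.806). All 10 neighbouring pairs of its condition means overlapped. Among the members, Mtf2 and Ezh2 had the closest profiles over the 11 condition means (Pearson r = 0.94 on log2 CPM, a description over points that share stages and genotypes).

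Phf19, the Polycomb-like subunit best known from embryonic stem cells and tumours, had the widest range. Undifferentiated WT held 6.16 and 7.04 CPM and undifferentiated W330R 5.14 and 4.63 CPM. At day 2 it was 0.227 and 0.295 CPM in WT, 0.214 and 0.0761 CPM in W330R, and 0.0821 and 0.0495 CPM in W330R-R181E, which are counts of 3 and 6, 4 and 2, and 1 and 1 reads. At day 6 it was 3.29 and 1.46 CPM in WT, 2.33 and 1.44 CPM in W330R, and 1.86 and 1.08 CPM in W330R-R181E. The 6 libraries of day 2 lay below all others, the 4 undifferentiated ones above all others, and those of days 4 (0.565 to 1.78 CPM) and 6 overlapped. The fit gave −4.85 ± 0.44 for day 2 against undifferentiated (adjusted p = 3.52e-07) and 3.78 ± 0.37 for day 6 against day 2 (adjusted p = 2.5e-06). With so few reads at day 2, the size is better given from the counts. The undifferentiated level was 25.2 times that of day 2 in WT (95% interval 13.02 to 55.7) and 37.0 times in W330R (16.4 to 103). The day 6 level was 8.59 times that of day 2 in WT (4.33 to 19.4), 15.3 times in W330R (6.89 to 42.4) and 27.9 times in W330R-R181E (7.50 to 234). These intervals cover counting error only. Phf19 shares none of its 31-base words with another annotated gene.

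Phf1, which stimulates PRC2 and carries the same kind of histone reader, was lower at day 2 by 0.90 ± 0.30 (adjusted p = 0.0157) and then rose by 0.89 ± 0.24 to day 6 (adjusted p = 0.00643). Its levels were 9.72 to 12.6 CPM in undifferentiated libraries, 2.42 to 10.8 CPM at day 2 and 7.34 to 21.9 CPM at day 6. Those ranges overlap, and within WT and W330R the 2 day 2 libraries differed from each other (2.42 and 6.69 CPM, 4.70 and 10.8 CPM). The early call was lost without W330R undifferentiated replicate 2 (−0.82, adjusted p = 0.0511), WT day 2 replicate 1 (−0.63, adjusted p = 0.0585) or W330R day 2 replicate 1 (−0.66, adjusted p = 0.0664), and in a fit of its 4 conditions alone (−0.92, adjusted p = 0.0620). Phf1 values are uncertain for another reason: 1370 bases (39.3%) of its GENCODE M21 exons overlap those of Cuta on the opposite strand, and 32.5% of its 31-base words occur in other genes. The strand setting of the counting is not given in the sources used here, and without it reads of the pair cannot be told apart over the overlap. Cuta itself, looked up after these values were seen, was 16.3 to 43.4 CPM and was not called for either step (−0.08 ± 0.21 and −0.14 ± 0.17, adjusted p = 0.769 and 0.518).

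Of the PRC2.2 subunits, Jarid2 rose in the first step and Aebp2 fell in the second. Jarid2, which docks PRC2.2 on chromatin, was 12.9 and 17.3 CPM in undifferentiated WT and 24.0 and 23.5 CPM in undifferentiated W330R. It rose by 0.54 ± 0.14 to day 2 (adjusted p = 0.0042), where the libraries held 22.8 to 33.5 CPM, and the further difference to day 6 of 0.20 ± 0.11 was not called (adjusted p = 0.156). The lowest day 2 value came from WT and overlapped the undifferentiated W330R libraries. Over the 11 condition means its profile was closest to that of Ezh1 (r = 0.92) and opposite to that of Suz12 (r = −0.85). Aebp2, a zinc finger subunit that stabilises the complex, is the other subunit of this form. Its early difference was 0.15 ± 0.09 (adjusted p = 0.194), and it fell by 0.22 ± 0.08 from day 2 to day 6 (adjusted p = 0.0269), with 127 to 183 CPM at day 2 and 104 to 155 CPM at day 6. That call depended on single libraries: leaving 1 out ended it in 7 of 12 cases (−0.21 to −0.16, adjusted p 0.0560 to 0.0981), namely both day 6 libraries of W330R, replicate 1 of day 2 in each genotype, and replicate 2 of day 6 in WT and in W330R-R181E. Scaling by library totals alone (−0.09, adjusted p = 0.485), no filter on low counts (−0.20, adjusted p = 0.141) and a fit of these 6 conditions alone (−0.21, adjusted p = 0.0933) also ended it.

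Counted together, 5 of 9 members were called between undifferentiated and day 2, 2 higher (Ezh1, Jarid2) and 3 lower (Suz12, Phf1, Phf19), where 63% of all tested genes were called (33.5% higher and 29.4% lower). From day 2 to day 6, 7 of 9 were called, 2 higher (Phf1, Phf19) and 5 lower (Ezh2, Eed, Suz12, Mtf2, Aebp2), against 51.5% of all genes (27.1% higher and 24.5% lower). The members' median log2 change was −0.06 in the first step and −0.22 in the second, beside 0.07 and 0.01 over all genes tested. With library totals in place of TMM the median of all genes in the second step was 0.15, and the share of calls that were higher went from 52.5% to 65.4%. No member changed direction under that scaling. Within genotypes, the first step was called for 5 members in WT (background 50.9%) and for 2, Ezh1 and Phf19, in W330R (48.2%). The second step was called for 5 members in WT (26.6%), 3 in W330R (25%) and 1, Phf19, in W330R-R181E (23.2%). Several single-genotype calls rested on 1 library: with 1 library left out, the count was 2 to 4 for the first step in WT, and 2 to 5 in WT, 1 to 5 in W330R and 1 to 2 in W330R-R181E for the second.

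**Figure D3:**
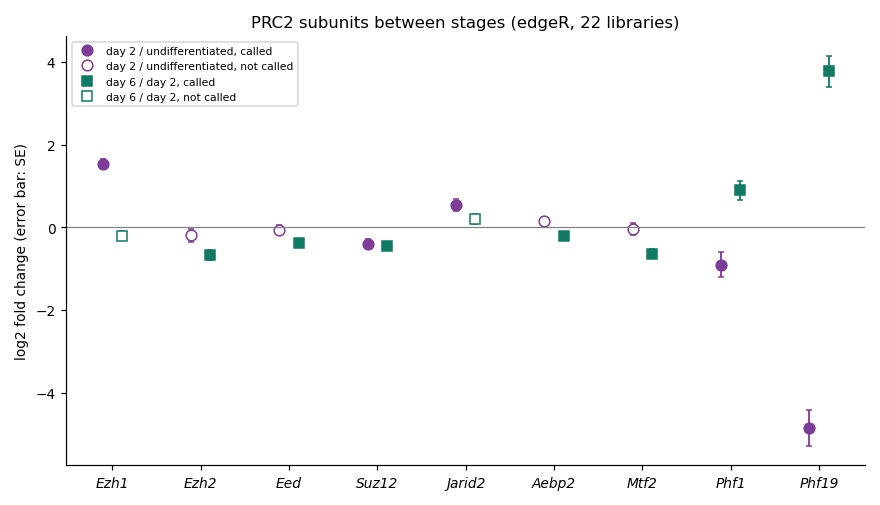
Fitted log2 fold change (vertical axis, with SE bars) of each member for day 2 against undifferentiated (circles, mean of WT and W330R) and day 6 against day 2 (squares, mean of 3 genotypes), filled where called. The circles for Ezh1 (1.53) and Phf19 (−4.85) and the square for Phf19 (3.78) lie farthest from 0, and the squares for Ezh2, Eed, Suz12, Mtf2 and Aebp2 all lie below it.

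Between genotypes, Phf1 was called higher in W330R over the stages, and Ezh1 in undifferentiated W330R cells alone. Averaged over the 4 stages, W330R against WT gave 1 call of 9, with 22.9% of all genes called. That call was Phf1, higher by 0.68 ± 0.21 (1.61-fold, adjusted p = 0.0286). Phf1 libraries of WT and W330R were 12.6 and 10.7 CPM against 9.72 and 12.03 CPM before differentiation, 2.42 and 6.69 CPM against 4.70 and 10.8 CPM at day 2, 5.49 and 8.24 CPM against 12.9 and 11.7 CPM at day 4, and 8.85 and 7.34 CPM against 21.9 and 16.2 CPM at day 6. The genotypes overlapped in undifferentiated cells and at day 2 and not at days 4 and 6. The largest single-stage difference was at day 6 (1.24 ± 0.41), which missed the threshold (adjusted p = 0.0851), and the tests of a change in the genotype difference between stages gave 0.86 ± 0.59 and 0.48 ± 0.58 (adjusted p = 0.568 and 1.00). Leaving out single libraries ended the call of the mean in 7 of 16 cases (0.50 to 0.67, adjusted p 0.0561 to 0.0890): WT undifferentiated replicate 2, day 4 replicate 1 and day 6 replicate 2, and W330R undifferentiated replicate 2, day 2 replicate 2, day 4 replicate 1 and day 6 replicate 1. Cuta, which shares exon sequence with Phf1, differed by 0.32 ± 0.15 (adjusted p = 0.143), and its part in the Phf1 difference was not tested. The cell-state markers also differed between these genotypes. The summed adipocyte markers were 4632 and 5948 CPM in WT against 1893 and 2324 CPM in W330R at day 4, and 4679 and 9229 CPM against 1441 and 1643 CPM at day 6. The summed proliferation genes were 464 and 384 CPM in WT against 747 and 714 CPM in W330R at day 4, and 795 and 492 CPM against 907 and 806 CPM at day 6. At these days the genotypes did not overlap in either sum, as for Phf1, and the part of cell state in the genotype differences was not tested.

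The other 8 members were not called in this mean. Ezh1 differed by 0.20 ± 0.09 (adjusted p = 0.112), Jarid2 by 0.19 ± 0.10 (adjusted p = 0.194) and Phf19 by −0.42 ± 0.28 (adjusted p = 0.304), and the remaining 5 lay between −0.09 and 0.08. With library totals alone the Ezh1 difference was 0.31 and was called (adjusted p = 0.0131), and the median of all genes went from 0.01 to 0.12. The share of all calls that were higher went from 48.7% to 68.1% under that scaling. The Ezh1 difference was also called without W330R day 2 replicate 1 (0.27, adjusted p = 0.0168).

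Ezh1 was the single member called at a single stage between genotypes. In undifferentiated cells it was 1.95-fold higher in W330R (0.96 ± 0.18, adjusted p = 0.0141), where 1.75% of genes were called, and the 2 W330R libraries (73.7 and 73.1 CPM) were well apart from the 2 of WT (36.7 and 38.5 CPM). At days 2, 4 and 6 the same comparison gave 0.01 ± 0.17, 0.00 ± 0.17 and −0.17 ± 0.17, and edgeR called 0 of 9 members at each of those days, with 3.06%, 6.14% and 7.54% of genes called. At an unadjusted p under 0.05 these days held 0, 0 and 1 members, where 2637, 3354 and 3258 of all genes passed. DESeq2 called 0, 0 and 1 members, the last being Phf1 (1.22, adjusted p = 0.0356). The change in the genotype difference from undifferentiated to day 2 was −0.96 ± 0.25 and missed the threshold (adjusted p = 0.0694, 1.87% of genes called). DESeq2 called it (−0.98, adjusted p = 0.0110), as did the fit without W330R day 2 replicate 2 (−1.31, adjusted p = 0.0124). From day 2 to day 6 no member was called for a changed difference between W330R and WT (0.0895% of genes) or between W330R-R181E and W330R (0%) by edgeR or DESeq2. None had an unadjusted p under 0.05, where 975 and 596 of all genes did. Leaving out any of the 4 undifferentiated libraries ended the call in those cells, with the difference at 0.93 to 1.00. The tests of those cells use the spread shared with days 2 to 6, which was wider. Jarid2 in undifferentiated cells differed by 0.65 ± 0.20, with no overlap of libraries, and was not called (adjusted p = 0.150). A fit of those 4 libraries alone called it (0.64, adjusted p = 0.0103). That fit called 4 members in all, and its share of all genes is not given here. In the main fit Suz12 (−0.25 ± 0.18, adjusted p = 0.689) and Mtf2 (−0.24 ± 0.19, adjusted p = 0.728) were lower in W330R and not called. The same held for Eed (−0.17 ± 0.16, adjusted p = 0.796).

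**Figure D4:**
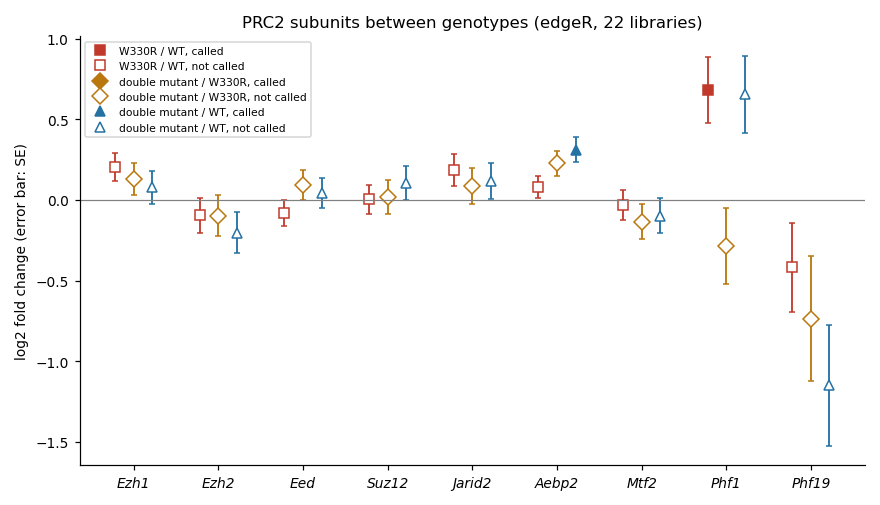
Fitted log2 fold change (vertical axis, with SE bars) of each member for W330R against WT (squares, 4 stages), W330R-R181E against W330R (diamonds, days 2 to 6) and W330R-R181E against WT (triangles, days 2 to 6), filled where called. Filled symbols stand only at Phf1 (0.68) and Aebp2 (0.31), and the widest bars are those of Phf19.

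Comparisons of W330R-R181E used days 2 to 6, and they share libraries with each other and with the comparison above. Against W330R, edgeR called 0 of 9 members, with 17.2% of all genes called. At an unadjusted p under 0.05 the count was 1, Aebp2, at 0.23 ± 0.08 (adjusted p = 0.0567), where 4366 of all genes passed. DESeq2 called Aebp2 (0.24, adjusted p = 0.0119). RLE scaling (0.24, adjusted p = 0.0438) and the fit without W330R-R181E day 2 replicate 2 (0.30, adjusted p = 0.0186) called it too. Against WT, 1 of 9 was called, with 9.57% of all genes called: Aebp2 was higher by 0.31 ± 0.08 (1.24-fold, adjusted p = 0.0241). Aebp2 libraries of W330R-R181E and WT were 183 and 144 CPM against 163 and 139 CPM at day 2, 166 and 139 CPM against 125 and 111 CPM at day 4, and 155 and 147 CPM against 116 and 104 CPM at day 6. The groups overlapped at day 2 and were separate at days 4 and 6. The adipocyte marker sums of W330R-R181E, 3133 and 2976 CPM at day 4 and 1701 and 3032 CPM at day 6, lay below those of WT as well, and their part was not tested. W330R lay between them in Aebp2 at those days, with 136 and 139 CPM at day 4 and 127 and 125 CPM at day 6. The call was lost in a fit of these 6 conditions alone (0.32, adjusted p = 0.148) and on leaving out WT replicate 2 of day 2, day 4 or day 6 or W330R-R181E replicate 1 of day 2, day 4 or day 6 (0.25 to 0.30, adjusted p 0.0640 to 0.0882).

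Phf19 had the largest difference of any member between W330R-R181E and WT, −1.15 ± 0.37, and was not called (adjusted p = 0.0669). At day 2 the counts of 9 WT reads and 2 W330R-R181E reads gave a ratio of 4.34 with a 95% interval from 0.898 to 41.3, so a difference was not detectable at this depth. At day 4 the WT libraries (1.66 and 0.969 CPM) lay above those of W330R-R181E (0.912 and 0.565 CPM), and at day 6 the groups overlapped. Phf1 differed by 0.66 ± 0.24 and was not called (adjusted p = 0.0957), although leaving out WT day 2 replicate 2 gave 0.98 (adjusted p = 0.0307). Against W330R these genes gave −0.74 ± 0.39 (Phf19, adjusted p = 0.222) and −0.29 ± 0.24 (Phf1, adjusted p = 0.459). The core subunits Ezh2, Eed and Suz12 lay within −0.20 to 0.10 in both comparisons. By single stage, edgeR called no member at days 2, 4 or 6 for W330R-R181E against W330R or against WT. The shares of all genes called were 2.67%, 1.91% and 1.5% against W330R, and 0%, 0% and 0.875% against WT. At an unadjusted p under 0.05, 0, 0 and 1 members passed against W330R, where 2237, 1999 and 2177 of all genes did. Against WT, 1 member passed at each day, where 1300, 1637 and 2159 of all genes did. DESeq2 called 1, Aebp2 against WT at day 6 (0.45, adjusted p = 0.0253).

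Genes of the cell cycle moved strongly between the stages and are given beside the members for that reason. Of 20 proliferation genes, 20 fell between undifferentiated and day 2 (median −4.12) and 16 rose and 3 fell between day 2 and day 6 (median 1.95). Mki67, the marker of cycling cells, went from 387 to 455 CPM to 3.15 to 37.1 CPM and then to 42.6 to 94.4 CPM. Phf19 and Phf1 moved the same way as that list in both steps, while Ezh2, Mtf2, Eed and Suz12 fell from day 2 to day 6 as it rose. Over the 11 condition means, the correlation with the mean log2 CPM of the 20 genes was 0.89 for Phf19, 0.67 for Phf1, 0.15 for Ezh2 and −0.79 for Ezh1. Over the 9 means of days 2 to 6 it was 0.80 for Phf19, 0.86 for Phf1, −0.85 for Ezh2, −0.85 for Mtf2, −0.72 for Eed, −0.71 for Suz12, 0.74 for Jarid2, −0.27 for Ezh1 and −0.20 for Aebp2. These points share libraries, stages and scaling, and the part of proliferation in the members' levels was not tested. Of the 11 E2F and pocket protein genes, 7 fell in the first step and 5 rose and 3 fell in the second, with E2f1 at −1.30 ± 0.12 and 1.04 ± 0.09. Of the 3 members with E2F letters in their windows, Phf19 followed the direction of E2f1 in both steps. Suz12 fell in both steps, as E2f1 did in the first alone. Ezh2 was not called in the first step and fell in the second.

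**Figure D5:**
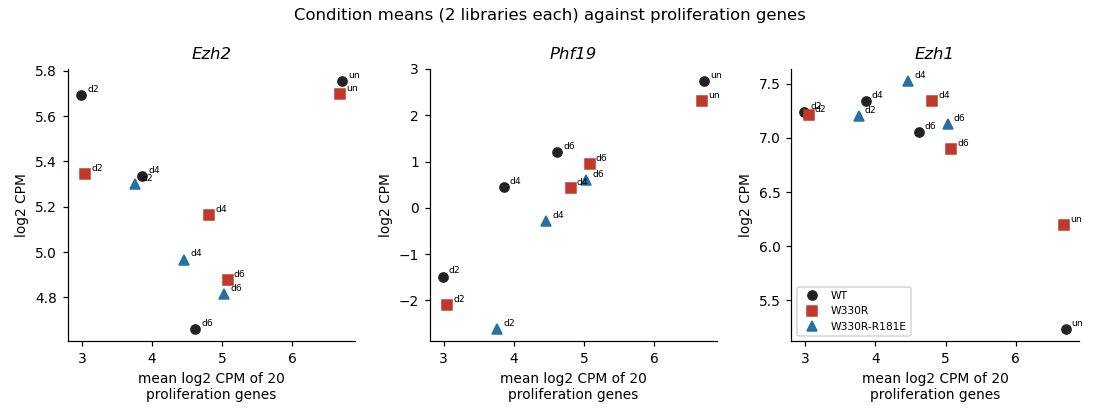
Mean log2 CPM of Ezh2, Phf19 and Ezh1 (vertical axes) against the mean log2 CPM of 20 proliferation genes (horizontal axis), with a point for each of the 11 conditions, labelled un, d2, d4 or d6 for its stage. Phf19 rises along the axis (r = 0.89), Ezh2 falls along it within days 2 to 6 (r = −0.85), and the 2 undifferentiated conditions stand at the right of each panel.

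The profiles most like those of the catalytic subunits were sought among 11147 genes over the 11 condition means. For Ezh2 they were Ttc9c (r = 0.97), Nupl2 (0.97), Xrn2 (0.97), Orc4 (0.97) and Trpm7 (0.97). For Ezh1 they were Stim1 (0.98), Mau2 (0.97), Tcp11l2 (0.97), Klhl24 (0.97) and Acvr1b (0.97). None of the 9 members was a candidate in that search. Between members, Eed and Suz12 correlated at 0.89, Ezh2 and Eed at 0.87 and Ezh2 and Suz12 at 0.86, and Ezh1 and Suz12 at −0.74, over the same 11 means, which share stages and genotypes.

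Other genes around the complex were counted in the same fit. Of 6 further PRC2 genes, 5 were tested, since Ezhip (row AU022751) reached at most 0.0870 CPM. The histone-binding subunit Rbbp4 was higher in W330R than in WT (0.32 ± 0.06, adjusted p = 0.00316) and in W330R-R181E than in WT (0.37 ± 0.07, adjusted p = 0.00912). It rose by 0.71 ± 0.09 to day 2 and fell by 0.62 ± 0.07 to day 6, while its paralog Rbbp7 fell by 0.40 ± 0.08 in the first step. Epop, which ties PRC2.1 to elongin and is listed under an older symbol, rose by 2.05 ± 0.18 to day 2. Its undifferentiated libraries held 0.817 to 3.47 CPM, the lowest from W330R, and those of day 2 held 5.74 to 8.29 CPM. In the mean of the 4 stages it was lower in W330R (−0.39 ± 0.12, adjusted p = 0.0275). For Epop the genotype difference changed between undifferentiated and day 2 by 2.02 ± 0.35 (adjusted p = 0.00993), so that mean does not describe every stage. Lcorl, which encodes a PALI subunit of PRC2.1, fell in both steps (−0.54 ± 0.16 and −1.01 ± 0.14).

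Enzymes that oppose or limit the mark were mixed. Kdm6b, an H3 lysine 27 demethylase, rose to day 2 (0.90 ± 0.14, adjusted p = 5.04e-05), and its relative Kdm6a fell from day 2 to day 6 (−0.42 ± 0.12, adjusted p = 0.008). Of the 5 H3 lysine 36 methyltransferases, whose mark limits PRC2, 4 fell to day 2, led by Nsd2 (−1.18 ± 0.11) and Setd2 (−0.78 ± 0.11), and 0 were called from day 2 to day 6. Neither list had a call between genotypes in the 3 means. Of the 4 genes of the H2A deubiquitinase, 2 rose and 1 fell to day 2, and 1 rose and 2 fell to day 6. Dnmt3a, whose reads cannot be assigned to the construct or to the endogenous gene and cannot show the mutation, was 316 to 347 CPM in undifferentiated libraries and 68.5 to 322 CPM later, and was not called between genotypes in any of the 3 means (adjusted p = 0.211, 0.542 and 0.0747). Of 6 known PRC2 targets, Wnt1, Wnt6, Wnt10a and Wnt10b did not pass the filter. Cdkn2a, the classic PRC2-silenced cell cycle inhibitor, had no read in the 4 undifferentiated libraries, where 3 reads would be 0.134 to 0.347 CPM, and 5.65 to 19.0 CPM in the other 18. It was among the 20 genes found only in the later naming pattern. Cdkn2b, a related inhibitor, was 0 to 0.116 CPM in undifferentiated libraries and 6.14 to 49.5 CPM in the other 18. These libraries hold no measure of the H3 lysine 27 mark, and the cause of both differences was not tested.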

How the data were processed

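The labels name RNA-seq libraries of total RNA (TriZol, NEBNext Ultra II kit). The authors deposited a table of whole-number read counts per gene for the 22 libraries, which were assigned to samples by column name. The columns of the second mutant say R181A where the labels say R181E, and the labels' name is used. The submitters' processing notes name kallisto, DESeq2 1.40 and GRCm39, and the paper given for style does not report this experiment. Counts were analysed with edgeR 4.0.16 in R 4.3.3: filterByExpr (minimum count 10, minimum total 15), TMM scaling, 1 mean per condition, glmQLFit and glmQLFTest, Benjamini-Hochberg adjustment over 14520 genes and a threshold of 0.05. SE is the absolute log2 fold change divided by the square root of F. Profiles used log2 CPM with a prior count of 2. Count ratios carry exact 95% intervals for counting error. Alternatives were DESeq2 1.42.0, RLE scaling, library totals, no filter, a replicate block, each comparison's conditions alone and leaving out each library. The fit was also run on simulated counts with a W330R effect in 200 genes, no change between stages and the same spread in every condition. That setting lacks the stage changes and unequal spread of these libraries. Exon overlaps and 31-base words came from GENCODE M21 (GRCm38), promoters from RefSeq. All 9 members were tested in every comparison, but not every member is named for each. Further lists are given by counts with up to 3 genes of smallest adjusted p, beside the 5 genes most correlated with Ezh1 and with Ezh2. Members and lists were chosen with earlier results of these data known. Protein sequences were not used here.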

Additional observations from a re-analysis of the deposited data

How the results depend on the processing

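Every stage change of a member kept its direction under DESeq2, RLE scaling, library totals alone, no filter, the replicate block and the fit of each comparison's conditions alone. The exceptions arose on leaving out 1 library and touched differences that were not called: for day 2 against undifferentiated, Eed ranged from −0.176 to 0.0572 and Mtf2 from −0.153 to 0.0635. The counts of called members and genes depended on the setting as follows, and the cause was not tested. DESeq2 called 1 member (0 in the main fit) for W330R-R181E against W330R, for the change of the W330R difference from undifferentiated to day 2, for W330R against WT at day 6 and for W330R-R181E against WT at day 6, and 2 for day 6 against day 2 in W330R-R181E. It called 2260 genes for W330R-R181E against WT and 671, 129 and 39 genes for the tests of a genotype difference between stages (271, 13 and 0 in edgeR, with 2075, 975 and 596 at an unadjusted p under 0.05). RLE scaling called 1 member for W330R-R181E against W330R. Library totals alone called 2 members for W330R against WT, 1 at day 6, and 2 for day 6 against day 2 in WT, and moved the share of higher calls for W330R-R181E against W330R from 45.7% to 33.7%. Without the filter, 33 and 4 genes were called for the later tests between stages. Fits of the conditions in a comparison alone called 163 genes and 0 members for W330R-R181E against WT, 0 genes for the W330R change from day 2 to day 6, 4 members for W330R against WT in undifferentiated cells, and 1, 1 and 0 members for day 6 against day 2 in WT, W330R and W330R-R181E.

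Same-numbered libraries were not treated as paired, since their numbers have no stated link. Over 55 pairs of conditions their deviations correlated at −0.0665 to 0.534 (median 0.0880), with 27 over 0.1. These values do not show that the numbers are unrelated. In each condition of days 2 to 6 the summed H3 lysine 27 demethylases were higher in replicate 1. The summed DNA methyltransferases were higher in replicate 2 in each of them. The main fit leaves such a difference in its spread. The replicate block raised the genes called in each of the 5 means (3329 to 4092 for W330R against WT). Its counts were 1 member for W330R-R181E against W330R, 2338 genes and 2 members against WT (Aebp2, and Phf19 at −1.15, adjusted p = 0.0193), 510 genes and 1 member, 24 genes, and 2 genes for the 3 tests between stages, 1 member for W330R-R181E against WT at day 6 and 2 for day 6 against day 2 in W330R-R181E.

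Leaving out 1 library gave 0 to 2 members for W330R against WT, 1585 to 2432 genes and 0 to 1 members for W330R-R181E against W330R, and 483 to 2089 genes and 0 to 1 members against WT. For the tests between stages it gave 71 to 234 genes and 0 to 1 members, 0 to 35 genes, and 0 to 2 genes. It gave 0 members for W330R against WT in undifferentiated cells, 2 to 4 for day 2 against undifferentiated in WT, and for day 6 against day 2, 2 to 5 in WT, 1 to 5 in W330R and 1 to 2 in W330R-R181E. A condition left with 1 library was assumed to vary like the others. Phf19 at day 2, with 1 to 6 reads per library, is limited by depth.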
